A study of Homo sapiens with 6 samples.

Results

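The 4 ID genes (ID1, ID2, ID3 and ID4) and the 3 E protein genes (TCF3, TCF4 and TCF12) were followed in the lymphoma line DEV, grown alone or beside blood cells. These 7 genes were chosen by symbol from the 18404 genes that had a probe set with 1 gene symbol. All 7 were measured, each by 1 probe set. DEV cells were profiled on Affymetrix human Gene arrays in 3 groups of 2 arrays: monoculture, coculture with CD3-positive T cells, and coculture with CD14-positive monocytes. The blood cells came from healthy donors and were mixed with DEV at 1 lymphoma cell to 10 blood cells. At day 5, DEV cells were recovered from the cocultures with magnetic beads against CD4, CD8 and CD14. DEV was established from nodular lymphocyte predominant Hodgkin lymphoma (NLPHL), a tumour of B cells, and all groups thus stand for 1 tumour. The monocultures are described as corresponding ones, without their day or any bead step, so blood cells and handling cannot be told apart.

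E proteins are transcription factors with a basic helix-loop-helix domain. They bind E-box DNA as dimers, with themselves or with tissue-restricted partners, and they drive commitment to the B lineage and the germinal centre reaction. ID proteins keep the helix-loop-helix but lack the basic region, so that an E protein held in a dimer with an ID protein cannot bind DNA. In B cell lymphoma the balance is known to be disturbed, since TCF3 and ID3 are mutated in Burkitt lymphoma and ID2 is abundant in Hodgkin cells of the classical type, which have lost much of the B cell programme.

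The sequences upstream of ID3 and ID2 are shown because these were the ID genes whose levels differed most between culture groups. Each is the 250 bases before the RefSeq transcription start in GRCh38.p14, read 5′ to 3′ on the strand of the gene, at chr1:23559502-23559751 (minus strand) for ID3 and chr2:8681806-8682055 (plus strand) for ID2, with E-boxes (CANNTG, searched on both strands) in capitals.
ID3: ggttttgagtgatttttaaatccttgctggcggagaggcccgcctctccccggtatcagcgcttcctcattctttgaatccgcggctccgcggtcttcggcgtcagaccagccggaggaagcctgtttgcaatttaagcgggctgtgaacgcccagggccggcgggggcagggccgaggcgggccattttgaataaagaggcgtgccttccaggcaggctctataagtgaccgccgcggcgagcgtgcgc
ID2: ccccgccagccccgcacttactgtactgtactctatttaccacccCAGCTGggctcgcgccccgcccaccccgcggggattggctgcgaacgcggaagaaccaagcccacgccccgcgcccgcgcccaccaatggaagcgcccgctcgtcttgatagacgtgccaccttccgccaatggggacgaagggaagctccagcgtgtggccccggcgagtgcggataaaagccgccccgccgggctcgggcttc
The ID3 window held 0 matches to CANNTG and was 62.0% G or C, while the ID2 window held 1, of the form CAGCTG, at positions -205 to -200 from the start. The windows of ID1 and ID4 held 0 and 1, the latter again CAGCTG, at positions -21 to -16. Of 35116 promoter windows of this length, 61.8% held CANNTG and 14.0% held CAGCTG. The E-box form CAGGTG, read on either strand, was in 17.5% of all windows and in 0 of the 20 windows of the 7 genes, which included several alternative starts of TCF4 and TCF12. A match or its absence describes these letters in this window only.

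Array values are on the log2 scale, with array medians between 5.64 and 5.73. The table has no detection call, so a value near or below these medians is not shown to be above background. A value depends on the probe set as well as on the transcript, so levels were compared between arrays and not between genes. Differences are in log2 units with the standard error (SE) of a limma fit over all 6 arrays, and a gene was called where the p-value adjusted over all 32321 probe sets was under 0.05. Group values are mean ± SD of 2 arrays. The replicates are described as representative of several experiments, and neither how they were picked nor whether they were separate cultures is given, so the p-values measure only the spread between these arrays, which may be technical. One array stood apart in its marker genes. The monocyte product LYZ was at 8.42 in monocyte coculture replicate 1, against 4.98 to 5.09 in the other 5 arrays, and CD14 was at 6.15 there, against 5.21 to 5.42. T cell coculture replicate 1 weighed on the number of calls, which was 232 probe sets over both cocultures with it and 2329 without it.

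ID3 was higher in DEV cells from both cocultures. It stood at 5.47 and 5.67 in monoculture, at 6.35 and 6.53 with T cells, and at 6.73 and 6.71 with monocytes. The 3 groups did not overlap, and the order was monoculture, T cell coculture, monocyte coculture. Both cocultures lay above monoculture with no overlap for 15.2% of all probe sets. Over both cocultures ID3 rose by 1.01 ± 0.098 (2.02-fold, limma adjusted p = 0.0338), which placed it at rank 112 of 32321 by difference and at rank 40 by p. The monoculture mean of ID3, 5.57, lay below the array medians and is not shown to be above background, so its folds are ratios of array values and not exact ratios of transcript. ID3 was the only one of the 7 genes called, whereas 0.248% of all probe sets were called higher in this comparison and 0.47% lower. The study itself named ID3 from these arrays, so the call is not independent evidence.

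**Figure D1:**
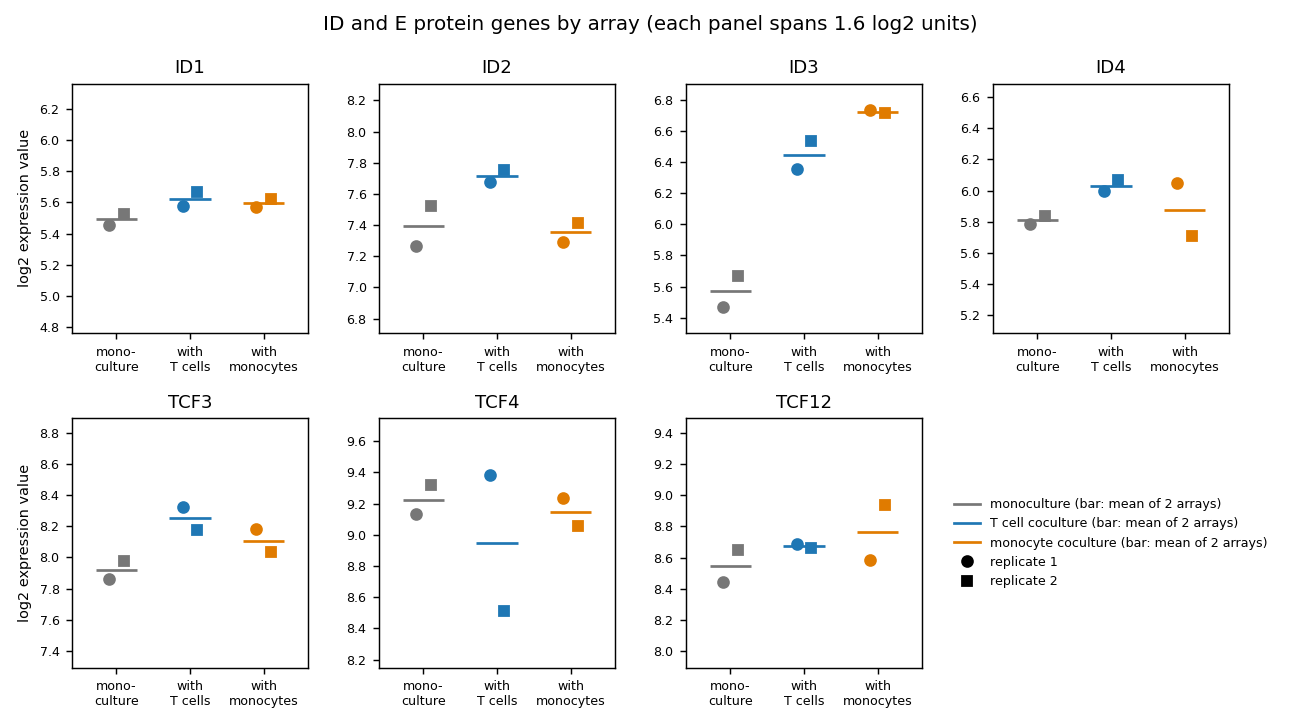
Log2 expression value of the 7 genes in each of the 6 arrays; grey is monoculture, blue T cell coculture and orange monocyte coculture, circles mark the first and squares the second array of a group, with a bar at their mean. Every panel spans the same number of log2 units. The ID3 coculture arrays, from 6.35 to 6.73, lie apart from monoculture at 5.47 and 5.67, while the other 6 genes moved less and the T cell arrays of TCF4 lie far apart.

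Taken by coculture, ID3 rose with monocytes by 1.15 ± 0.11 (2.23-fold, limma adjusted p = 0.0402), in a comparison where 0.579% of probe sets were called, 0.229% higher and 0.35% lower. It was again the only one of the 7 genes called. With T cells the difference was 0.87 ± 0.11 (1.83-fold), which did not pass (limma adjusted p = 0.0943). In that comparison limma called 0 of the 7 genes and 0.0% of all probe sets, while 3 of the 7 (ID2, ID3 and TCF3) and 15.4% of all probe sets had an unadjusted p under 0.05. Without T cell coculture replicate 1 the T cell difference of ID3 was 0.96. The call over both cocultures was lost when any monoculture or monocyte array was left out, as was every other call in that comparison. The ID3 differences were then 0.91 and 1.11 without monoculture replicate 1 or 2, and 1.01 and 1.02 without monocyte coculture replicate 1 or 2. The call with monocytes was lost in the same 4 cases, at differences of 1.05, 1.25, 1.14 and 1.17, along with nearly all others in that comparison.

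ID1, the family member that answers most directly to bone morphogenetic protein signals, had values close to the array medians throughout. It stood at 5.46 and 5.53 in monoculture, 5.58 and 5.67 with T cells, and 5.57 and 5.62 with monocytes. All 4 coculture arrays thus lay above both monoculture arrays, as they did for 15.2% of all probe sets. The difference over both cocultures was 0.12 ± 0.078 (limma adjusted p = 0.508), with a 95% interval from -0.075 to 0.31. ID1 was not shown to be above background in any group, so the small spread does not speak of the transcript.

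ID4, best known from the developing nervous system, stood at 5.79 and 5.84 in monoculture, 5.998 and 6.07 with T cells, and 6.05 and 5.71 with monocytes. Both T cell arrays lay above monoculture, and the monocyte arrays lay on either side of it. Several of these values were near the array medians, so ID4 is not clearly shown to be above background. The difference was 0.22 ± 0.13 with T cells (limma adjusted p = 0.505) and 0.066 ± 0.13 with monocytes (limma adjusted p = 0.865). The monocyte value changed sign without monocyte coculture replicate 1, at -0.11.

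ID2, which in lymphocytes marks innate and cytotoxic lineages and opposes the B cell programme, differed in another way from ID3. It stood at 7.26 and 7.52 in monoculture, 7.67 and 7.75 with T cells, and 7.29 and 7.41 with monocytes. The T cell arrays were the highest, and the monocyte arrays lay within the range of monoculture. The difference was 0.32 ± 0.12 with T cells (limma adjusted p = 0.284) and -0.040 ± 0.12 with monocytes (limma adjusted p = 0.914), and neither passed. The monocyte value changed sign under quantile normalization, at 0.058, as well as when monoculture replicate 2 was left out (0.089) or monocyte coculture replicate 1 (0.019).

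TCF3, which encodes the E proteins most needed by early B cells and by germinal centre cells, stood at 7.86 and 7.98 in monoculture, 8.32 and 8.18 with T cells, and 8.18 and 8.04 with monocytes. All 4 coculture arrays lay above monoculture, as for 15.2% of all probe sets, with T cell coculture replicate 1 the highest. Over both cocultures the difference was 0.26 ± 0.093 (1.20-fold), which did not pass over all probe sets (limma adjusted p = 0.208). TCF3 was the only other of the 7 genes with an unadjusted p under 0.05 in this comparison, as were 18.8% of all probe sets.

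TCF4, the E protein of plasmacytoid dendritic cells that mature B cells also express, had the widest spread between replicates. It stood at 9.13 and 9.32 in monoculture, 9.38 and 8.51 with T cells, and 9.23 and 9.06 with monocytes. The gap of 0.87 between the T cell arrays exceeded that of 98.4% of probe sets in this group. The difference over both cocultures was -0.18 ± 0.24 (limma adjusted p = 0.759), with a 95% interval from -0.76 to 0.40, and it changed sign without T cell coculture replicate 2, at 0.038, as did the T cell difference of -0.28, at 0.16. That array, at 8.51, lay far below the other 5. Monocyte coculture replicate 2 also lay below both monoculture arrays, while T cell coculture replicate 1 lay above both, so no common direction was found.

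TCF12, the broadly expressed member, stood at 8.45 and 8.65 in monoculture, 8.69 and 8.66 with T cells, and 8.58 and 8.94 with monocytes. The T cell arrays lay just above monoculture, and monocyte coculture replicate 1 lay between the monoculture arrays. The difference over both cocultures was 0.17 ± 0.13 (limma adjusted p = 0.552), with a 95% interval from -0.14 to 0.48.

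**Figure D2:**
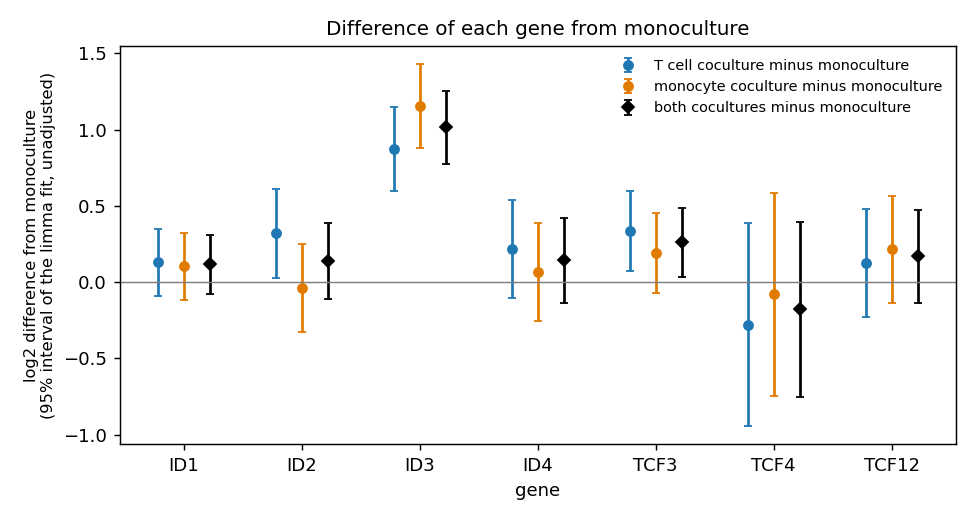
Log2 difference of each gene from monoculture, for T cell coculture (blue), monocyte coculture (orange) and both together (black diamonds); bars are unadjusted 95% intervals of the limma fit. The intervals of ID3 lie between 0.60 and 1.43, and among the other 6 genes only those of ID2 with T cells and of TCF3 with T cells and over both cocultures leave out 0, without passing after adjustment.

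By role, 4 of 4 ID genes and 2 of 3 E protein genes had higher means over both cocultures, as did 57.5% of all probe sets. The medians were 0.14 for the ID genes and 0.17 for the E protein genes, against 0.028 over all probe sets. Both T cell arrays lay above both monoculture arrays for 6 of the 7 genes, all but TCF4, and for 25.7% of all probe sets. With monocytes this held for 3 of the 7 (ID1, ID3 and TCF3) and for 27.8% of all probe sets. Both arrays of a coculture lay below monoculture for 0 of the 7 genes, against 20.9% of all probe sets with T cells and 22.4% with monocytes. Means were higher than in monoculture for 6 of the 7 genes with T cells and for 5 with monocytes, against 56.2% and 56.6% of all probe sets. The T cell and monocyte comparisons share the same monoculture arrays.

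Monocyte coculture was also compared with T cell coculture directly, where limma called 0 of the 7 genes and 0.0% of all probe sets. ID2 was lower with monocytes than with T cells by 0.36 ± 0.12 without passing (limma adjusted p = 0.582), and its monocyte arrays lay below its T cell arrays, as for 17.1% of probe sets. ID3 went the other way, with a difference of 0.28 ± 0.11 (limma adjusted p = 0.662) and both monocyte arrays above both T cell arrays, as for 17.6% of probe sets. These were the 2 members with an unadjusted p under 0.05, as had 7.49% of all probe sets. The other 5 differed by -0.15 (ID4) to 0.20 (TCF4). Of the 7 genes, 3 had higher means with monocytes than with T cells, against 50.6% of all probe sets.

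Over the 6 arrays ID3 varied most, with an SD of 0.54, followed by TCF4 at 0.31 and ID2 at 0.20, and ID1 varied least at 0.073. The median over all probe sets was 0.14. Between members, Pearson's r over the 6 arrays ran from -0.62 (ID1 with TCF4) to 0.82 (ID1 with ID3). ID3 and ID2 had r = 0.22, and ID3 and TCF3 had r = 0.69. The points share the same 6 arrays in 3 groups, so these values describe the arrays and were not tested. By the same measure, the genes most like ID3 were KCNK6 (0.999), PTGS1 (0.997) and YAP1 (0.995). PTGS1, a cyclooxygenase, rose by 0.64 ± 0.081 (limma adjusted p = 0.0448), and the other 2 were not called. Those most like ID2 were LYSET (0.990), RIMS4 (0.987) and RHEB (0.986), and those most like ID4 were LMNTD2 (0.992), CPLX1 (0.991) and ABCC8 (0.990). TCF3 ran closest to MIER1 (0.996), KCNIP2 (0.995) and FAM234B (0.993). TCF4 was nearest to HDHD3 (0.990), SP4 (0.986) and DENND2D (0.985), and TCF12 to NMRAL2P, F10 and SPRED2 (0.987, 0.987 and 0.986). With 18404 genes over 6 arrays, values this high are readily met.

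The genes around the ID and E proteins were then described by list, for both cocultures against monoculture. Over all probe sets, 0.718% were called, 57.5% had higher means and 18.8% had an unadjusted p under 0.05. These shares stand beside each list count below. Bone morphogenetic protein and TGF-beta signals act on ID genes through SMAD factors. Of 27 measured genes of this input, 14 had higher means and 13 lower (median 0.049), and limma called 0, with 5 at an unadjusted p under 0.05. SMAD3, the effector of TGF-beta, stood at 6.27 and 6.28 in monoculture, 6.83 and 7.39 with T cells, and 7.05 and 7.38 with monocytes. Its difference of 0.88 ± 0.18 did not pass (limma adjusted p = 0.0741), and without T cell coculture replicate 1 it was 1.02. SMAD5, an effector of bone morphogenetic proteins, differed by 0.43 ± 0.13, the decoy receptor BAMBI by 0.60 ± 0.18 and the receptor ACVR2A by -0.27 ± 0.085, none of them passing. The BAMBI difference was 0.75 without T cell coculture replicate 1. In monoculture BAMBI stood at 5.38 and 5.59, below the array medians, and is not shown there to be above background.

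EGR factors, which carry antigen receptor signals to ID3, and their NAB corepressors gave 4 of 5 higher means (median 0.070) and 0 calls by limma, with 1 at an unadjusted p under 0.05. NAB2 differed by 0.41 ± 0.093 (limma adjusted p = 0.0914), EGR3 by -0.19 ± 0.16, EGR4 by 0.056 and NAB1 by 0.070. EGR3 was at 6.56 and 6.48 in monoculture, 6.63 and 6.12 with T cells, and 6.41 and 6.16 with monocytes. EGR1 differed by 0.19 over both cocultures (limma adjusted p = 0.918), by 0.45 with T cells and by -0.077 with monocytes. EGR2 had no probe set with 1 symbol and was not measured. A link of these factors to the ID3 difference was not tested.

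Target genes of E proteins in B lineage cells did not move one way. Of 21 measured, 8 had higher means and 13 lower (median -0.078), and limma called 0, with 4 at an unadjusted p under 0.05. The B cell factor PAX5 stood at 10.23 and 10.00 in monoculture, 9.57 and 7.77 with T cells, and 8.26 and 7.43 with monocytes. All 4 coculture arrays were lower, as for 13.8% of all probe sets, T cell coculture replicate 1 the least. The difference of -1.86 ± 0.50 did not pass (limma adjusted p = 0.122). Without that array it was -2.31. The chemokine receptor CXCR5 differed by -0.97 ± 0.29 and the B cell regulators IRF8 and IRF4 by -0.38 ± 0.11 and -0.34 ± 0.099, none passing. CXCR5 and IRF8 differed by -1.17 and -0.47 without T cell coculture replicate 1.

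The axis that ID3 and TCF3 form in Burkitt lymphoma was described by 13 measured genes, of which 4 had higher means and 9 lower (median -0.21), where limma called 0 genes and 5 had an unadjusted p under 0.05. Its cyclin, CCND3, stood at 8.996 and 9.32 in monoculture, 8.68 and 7.94 with T cells, and 8.09 and 7.67 with monocytes. The coculture arrays lay below monoculture, as for 13.8% of all probe sets, and the difference of -1.06 ± 0.24 did not pass (limma adjusted p = 0.0880). The cell cycle inhibitor CDKN1A differed by 0.99 ± 0.15 (limma adjusted p = 0.0531), the phosphoinositide kinase subunit PIK3R1 by -0.61 ± 0.12 (0.0677) and MYC by -3.06 ± 0.48 (0.0540), all without passing. Leaving out T cell coculture replicate 1 gave differences of -1.25 (CCND3), 0.94 (CDKN1A), -0.70 (PIK3R1) and -3.53 (MYC). MYC differed by -2.59 without T cell coculture replicate 2. The study named CCND3, CDKN1A and MYC from these same arrays, so they are not independent evidence. For MYC the paper also reported less transcript by real-time PCR and less protein by western blot in cocultured DEV cells.

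**Figure D3:**
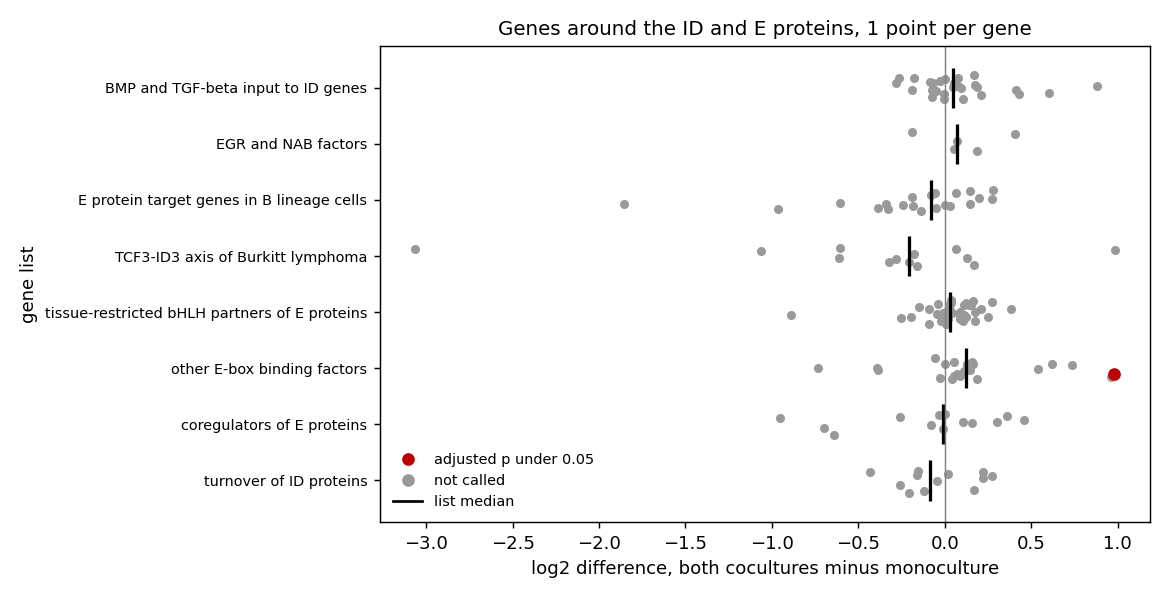
Log2 difference between both cocultures and monoculture for each measured gene of 8 lists around the ID and E proteins; each point is 1 gene, the black line the list median, and red marks limma adjusted p under 0.05. The red point is BHLHE41 at 0.98, and the list medians lie between -0.21 and 0.12.

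Tissue-restricted partners of E proteins gave 31 of 43 higher means (median 0.030) and 0 calls by limma, with 3 at an unadjusted p under 0.05. MSC, a repressor of activated B cells that pairs with E proteins, stood at 7.43 and 8.17 in monoculture, 7.21 and 6.59 with T cells, and 7.02 and 6.83 with monocytes. Its coculture arrays lay below monoculture, as for 13.8% of all probe sets, at a difference of -0.89 ± 0.26 (limma adjusted p = 0.138). The bridging cofactor LDB1 differed by 0.38 ± 0.10, HAND1 by 0.28 ± 0.11 and ATOH1 by 0.25 ± 0.11, none passing. In monoculture HAND1 stood at 5.07 and 5.34 and ATOH1 at 5.29 and 5.43. Both stayed near or below the array medians, and neither is shown to be above background.

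Other factors that bind E-boxes gave 19 of 24 higher means (median 0.12), with 1 call by limma while 8 stood at an unadjusted p under 0.05. BHLHE41, a repressor of the clock that shares E-boxes with activators, stood at 8.32 and 8.49 in monoculture, 9.13 and 9.41 with T cells, and 9.33 and 9.66 with monocytes. It rose by 0.98 ± 0.14 (1.97-fold, limma adjusted p = 0.0486), as ID3 did by 1.01. That call was lost without T cell coculture replicate 2 (0.91), without monoculture replicate 1 (0.89) or 2 (1.07), and without monocyte coculture replicate 1 (1.06) or 2 (0.90). Leaving out a monoculture or monocyte array also removed every other call over both cocultures. The MYC antagonist MXI1 differed by 0.62 ± 0.11 (limma adjusted p = 0.0588), the Notch target HEY1 by -0.73 ± 0.14 (0.0653) and the MYC partner MAX by -0.38 ± 0.080 (0.0763), none passing. MXI1 and HEY1 differed by 0.60 and -0.83 without T cell coculture replicate 1.

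Coregulators of E proteins gave 6 higher and 7 lower means of 13 (median -0.012), with 0 calls by limma while 6 stood at an unadjusted p under 0.05. TADA2A, of the histone acetylating complexes that E proteins recruit, stood at 6.60 and 6.55 in monoculture, 5.98 and 5.74 with T cells, and 5.98 and 6.04 with monocytes. All coculture arrays lay below monoculture, as for 13.8% of all probe sets, and the difference of -0.64 ± 0.096 just failed to pass (limma adjusted p = 0.0508). The corepressor scaffold SIN3A differed by -0.95 ± 0.25, NOTCH1 by 0.46 ± 0.10 and the corepressor CBFA2T2 by 0.36 ± 0.095. TADA2A and SIN3A differed by -0.70 and -1.17 without T cell coculture replicate 1. SIN3A too was named by the study from these arrays. Genes that set the turnover of ID proteins gave 5 higher and 7 lower means of 12 (median -0.082), again with 0 calls by limma while 3 stood at an unadjusted p under 0.05. USP1, which removes ubiquitin from ID proteins and so spares them from the proteasome, stood at 7.52 and 7.34 in monoculture, 7.18 and 6.82 with T cells, and 6.97 and 7.003 with monocytes. Its difference of -0.43 ± 0.12 did not pass (limma adjusted p = 0.137), and was -0.52 without T cell coculture replicate 1. FZR1, which directs ID2 to degradation, differed by 0.28 ± 0.087, COPS5 by -0.26 ± 0.11 and USP33 by 0.22 ± 0.091. In each coculture taken alone, limma called 0 genes of all 8 lists, with between 1 and 9 of a list at an unadjusted p under 0.05. Over all probe sets, 15.4% had such a p with T cells and 17.5% with monocytes. These counts also moved when T cell coculture replicate 1 was left out, as did the calls over all probe sets. Of the other E-box factors, limma called 1 with monocytes after quantile normalization, 2 after median centring and 1 with the replicate block. Leaving out the dimmest 40% of probe sets gave 1 call among these with monocytes. Of the Burkitt axis it called 2 with monocytes in that setting and 1 after median centring.

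T cells and monocytes express ID2 and ID3 themselves, so their markers were set beside these genes. The paper reports that flow cytometry showed efficient removal of the blood cells. It also states that T cell and monocyte transcripts were not enhanced in DEV cells from cocultures. In bulk RNA, fewer cells of a type and less RNA per cell cannot be told apart. Of the defining B cell markers, MS4A1 (CD20) had a mean of 9.22 in monoculture and was at 9.62 to 9.87 in the coculture arrays. Its difference of 0.57 ± 0.091 did not pass (limma adjusted p = 0.0545). CD79A was at 8.73 to 9.39 over the 6 arrays, while PAX5 was lower in the cocultures as given above. Of 10 measured B cell markers, 6 had higher means over both cocultures (median 0.048, 0 called by limma), against 57.5% of all probe sets. An unadjusted p under 0.05 was met by 4, against 18.8% of all probe sets. Of these, MS4A1 and CD22 (0.70) were higher, and PAX5 and BLK (-0.25) were lower. CR2 was at 4.84 to 5.002. Of 18 T cell markers, 14 had higher means with T cells than in monoculture (median 0.087, 0 called by limma, 1 at an unadjusted p under 0.05, against 56.2% and 15.4% of all probe sets for the first and last count). The marker at that p was ZAP70 (0.25). The summed linear level of the 18 was 1100 and 1111 with T cells, against 1079 and 1121 in monoculture. That sum follows its brightest marker, CD3D, which was lower with T cells. The mean log2 value, which weights the 18 alike, was 5.659 and 5.664 with T cells, against 5.582 and 5.603 in monoculture. Among the defining markers, CD4 was at 5.30 and 5.29 with T cells against 5.23 and 5.25, and CD3E at 5.50 and 5.12 against 5.06 and 4.98. CD2 was at 5.35 and 5.33 against 5.16 and 5.22, and CD8A at 5.56 and 5.76 against 5.66 and 5.56. CD3D was lower, at 8.07 and 8.12 against 8.26 and 8.33, as was CD3G, at 5.80 and 5.59 against 5.86 and 5.89. CD2, CD3E and CD4 lay below the array medians and are not shown to be above background. CD3D, alone among the 18, was called with monocytes, where it fell to 7.55 and 7.47. ID3 with T cells was 0.79 and 0.96 above the monoculture mean, and the part of residual T cells in this was not tested.

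Of 18 monocyte markers, 14 had higher means with monocytes than in monoculture (median 0.13, 0 called by limma, 3 at an unadjusted p under 0.05), against 56.6% of all probe sets with higher means, 0.579% called and 17.5% at that p. Those at that p were CD68 and CSF1R (0.41), which were higher, and MNDA (-0.69), which was lower. The other markers with lower means were VCAN (-0.19), S100A9 (-0.074) and CD300E (-0.031). The defining markers FCN1 and S100A8 differed by 0.076 and 0.19. The summed linear level of the 18 markers was 1920 and 1594 with monocytes, against 1106 and 1369 in monoculture. That sum follows its brightest marker in these arrays, CD68 at 9.15 and 9.45. It was not taken without CD68, so a rise of the list as a whole is not shown. LYZ and CD14 were raised in monocyte coculture replicate 1 alone, at 8.42 and 6.15, and stood at 5.06 and 5.42 in replicate 2. ID3 was at 6.73 and 6.71 in these arrays. CD68, a further marker of the list that was not called, was at 9.15 and 9.45 with monocytes, 7.64 and 8.44 with T cells, and 7.13 and 7.62 in monoculture. The part of residual monocytes in the ID3 difference was not tested. Of 9 NK cell markers, 7 had higher means over both cocultures (median 0.066, 0 called by limma, 1 at an unadjusted p under 0.05), against 57.5% and 18.8% of all probe sets for the first and last count. An array has no true zero, so no marker can be called absent.

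**Figure D4:**
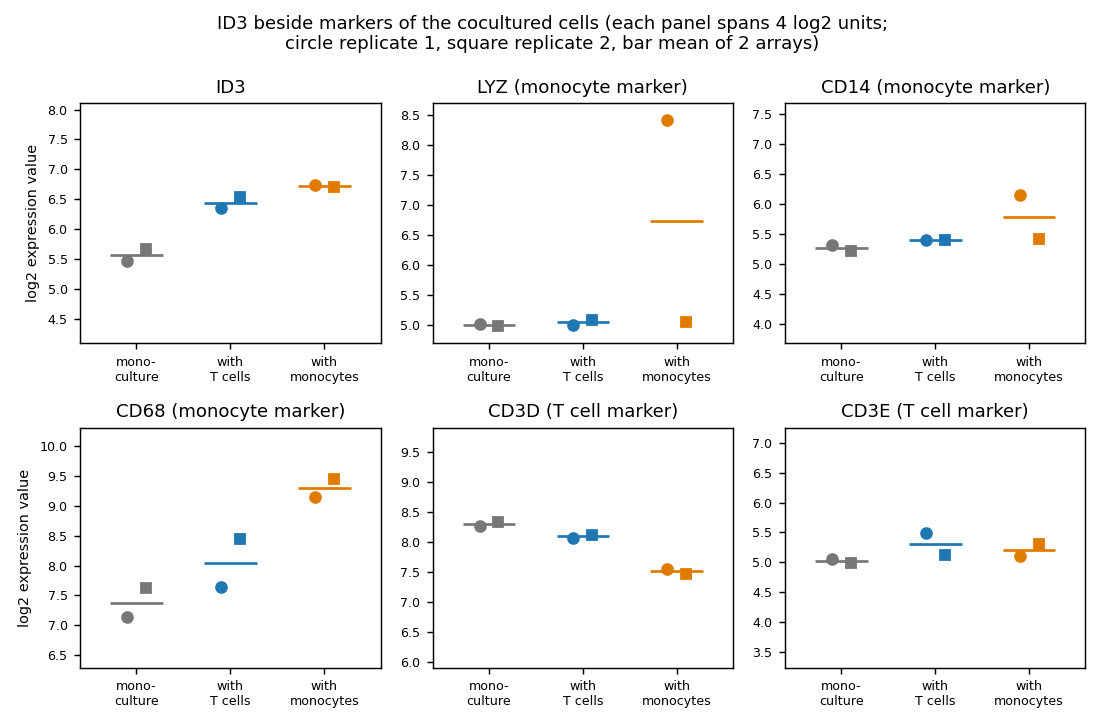
Log2 expression value of ID3, the monocyte markers LYZ, CD14 and CD68 and the T cell markers CD3D and CD3E in each array; colours are culture groups, circles mark the first and squares the second array of a group, with a bar at their mean and equal spans in all panels. LYZ is raised in monocyte coculture replicate 1 alone (8.42), CD68 is at 9.15 and 9.45 in the monocyte arrays, beside ID3 at 6.73 and 6.71; their part in ID3 was not tested.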

How the data were processed

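RNA (40 ng) of DEV cells was amplified by the NuGEN Ovation Pico method before biotin labelling, and each sample had its own array. The deposited table has 1 value per probe set and array on the log2 scale, as the authors supplied it. How the arrays were summarised and normalized is stated neither by the labels nor by the methods read here. The number of arrays limits the precision. Values were used as deposited, and groups came from the sample titles.

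Of 32321 probe sets, 19158 had 1 symbol in the platform annotation. Where a gene had several probe sets, the one with the highest mean stood for it. One mean per group was fitted to all probe sets in limma 3.58.1 (R 4.3.3; 3 residual and 3.08 prior degrees of freedom), with Benjamini-Hochberg adjustment over all probe sets. There were 4 comparisons: both cocultures, T cell coculture and monocyte coculture each minus monoculture, and monocyte minus T cell coculture. The fit was tested on simulated data with known changes. The 7 genes, the lists and the markers were chosen with earlier results of these data known. Named were the 7 genes, from each list the 4 genes of smallest p over both cocultures and any called, and the 3 genes of highest Pearson r with each of the 7 genes whose SD exceeded the median SD. EGR1 was named besides, as the remaining measured gene of its list. Alternatives were quantile normalization, median centring, leaving out the dimmest 40% of probe sets, averaging probe sets of a gene, another variance model in limma (trend and robust), the replicate number as a block, and leaving out each array. Promoter windows were taken from RefSeq sequences (GRCh38.p14).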

Additional observations from a re-analysis of the deposited data

How the results depend on the processing

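With 2 arrays a group, single arrays decided most calls. Over both cocultures, limma called 232 probe sets (80 higher), against 202 (90 higher) after quantile normalization, 564 (120 higher) after median centring, 756 without the dimmest 40% of probe sets, 50 with trend and robust estimation, 0 to 2329 on leaving out 1 array, and 2545 without the first array of both cocultures, a setting added once the data had been seen. The T cell comparison gave 0, against 0 to 1391 on leaving out 1 array and 1535 in the added setting. The monocyte comparison gave 187 (74 higher), against 128 (68 higher), 440 (107 higher), 572 and 0 in the same order, 0 to 1167 on leaving out 1 array and 726 in the added setting. Monocyte against T cell coculture gave 0, and 0 to 1 on leaving out 1 array.

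ID3 was the only one of the 7 genes called in any of these settings. The number called ran from 0 to 1 on leaving out 1 array in each comparison with monoculture, was 1 with T cells in the added setting, and was 0 with monocytes under trend and robust estimation (ID3 adjusted p = 0.0534 by limma). The ID3 difference over both cocultures was 0.91 to 1.11 on leaving out 1 array. BHLHE41 was no longer called with trend and robust estimation (limma adjusted p = 0.0616). Without the dimmest probe sets, MYC, CDKN1A, MXI1, HEY1 and TADA2A were called, and after median centring MYC and TADA2A.

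Of 364 recomputed differences of the 7 genes, 16 changed sign. On leaving out 1 array, TCF4 ran from -0.40 to 0.038 over both cocultures, -0.71 to 0.16 with T cells, -0.17 to 0.012 with monocytes and -0.24 to 0.63 between cocultures. With monocytes ID2 ran from -0.17 to 0.089 and ID4 from -0.11 to 0.24. Between cocultures ID1 ran from -0.072 to 0.018, ID4 from -0.33 to 0.019 and TCF12 from -0.091 to 0.27. NAB1 ran from -0.11 to 0.25 over both cocultures. With monocytes, quantile normalization gave 0.058 for ID2 and 0.11 for TCF4, median centring gave -0.00098 for ID4, and the added setting gave 0.019 for ID2 and -0.11 for ID4. Median centring gave -0.0067 for EGR4 over both cocultures. The cause of these changes was not tested.

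Replicate numbers were not shown to pair arrays, since the differences between replicates 2 and 1 correlated between groups at 0.0268, -0.152 and 0.26 over all probe sets. With the replicate block, 292 probe sets and 1 of the 7 genes were called over both cocultures.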
